A study of Mus musculus with 30 samples.

Results

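Inside the IG-CGI, a CpG-rich stretch of the imprinting control region of the mouse Dlk1-Dio3 domain, bisulfite amplicon reads that were mostly methylated still held unmethylated CpG calls. Such a call is named a gap below, and a CpG's gap share is how many of its calls, in percent, were unmethylated. The reads were chosen by their own calls: at least 5 calls and at least 70% of them methylated, over the 29 CpGs of the amplicon that lie between base 55 and base 273 of its reference. The rule took 11657 of 22349 reads with enough calls in 17 libraries. Since the rule counted gaps, the number of gaps per read is given as a description with no test. Tests were kept for where gaps lay within reads that held the same number of them, which the rule did not use.

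Imprinted genes are expressed from 1 parental copy, and a control region with methylation on 1 copy keeps the copies apart. At Dlk1-Dio3 the control region, called the IG-DMR, is methylated on the paternal copy and carries its methylation through the reprogramming of the early embryo. Dnmt1 copies methylation onto the new strand after replication, Tet enzymes oxidise it, and the zinc finger protein Zfp57 binds methylated imprinted regions and helps to keep them methylated. Gzf1 is a zinc finger protein that the series studies as the counterpart of Zfp57 on this region. A gap in such a read is a CpG read as unmethylated on a DNA copy that otherwise carried the mark, and sequencing or conversion errors are counted with it. The IG-DMR lies between Dlk1 (chromosome 12, 109452485 to 109463336, GRCm38) and the long non-coding RNA gene Meg3 (chromosome 12, 109540996 to 109571729). The calls are numbered on the amplicon reference and not on the chromosome, so CpGs are named here by their base on that reference.

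Genomic DNA was treated with bisulfite, amplified by nested PCR and sequenced on nanopores, and 1 library was made per sample. The wild-type, Gzf1 knockout and Dnmt1 knockout mouse embryonic stem cells (mESC) were of the V6.5 line, and the Tet triple knockout mESC were a line of their own. Further libraries came from E10.5 embryo trunk (wild type and Gzf1 knockout), from MII oocytes (wild type, and 2 of Gzf1 knockout) and from adult tail (wild type and Gzf1 knockout). A Gzf1 knockout pup found dead at birth gave 1 library, labelled as adult tail tissue. Tails of 5 heterozygous mice, born to knockout mothers and wild-type fathers, gave the rest, and their labels call them both pups and adults. The sources used here give no clone numbers or strains and do not say whether oocytes were pooled. No expression was measured, so genotypes and tissues rest on the labels alone.

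Of the 17 libraries, 2 held under 50 mostly methylated reads and were left out. Wild-type oocytes had 0 among 1178 reads, a count that leaves room for a share of up to 0.255%. Dnmt1 knockout mESC had 2 among 766. The other 15 libraries had 152 to 1586 such reads with 27.1 to 28.4 calls each on average. Mostly methylated reads were 34.5% to 47.7% of reads in the 9 libraries with no Gzf1 knockout and 66.3% to 100% in the 6 Gzf1 knockout libraries. Intervals below are 95% Wilson intervals. They cover counting error only, because several PCR reads can stem from 1 molecule and no molecular identifiers mark them. The wild-type and knockout trunk libraries shared the code in their read names, and so did the tail pair, the oocyte knockout pair, and the dead pup with the 5 heterozygous tails. Wild-type and Gzf1 knockout mESC had a code each, and the Tet triple knockout shared its code with the Dnmt1 knockout. So in the mESC comparisons, and wherever the dead pup or the heterozygous tails are set against the wild-type tail, code and genotype cannot be told apart.

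The reads themselves show what a gap looks like. Each line below is 1 read pattern over the 29 CpGs from base 55 to base 273, with ● for a methylated and ○ for an unmethylated call. The first 5 patterns are the most frequent ones with 1 gap over all 15 libraries. The gap at 231 had 1116 reads in 15 libraries, of which 1005 came from the first oocyte library. The others are the most frequent patterns with 3 or more gaps in 7 of the libraries. In knockout mESC and in the knockout tail 2 patterns tied, and in the dead pup 4 did, and of these 1 is shown.
gap at 131, 227 reads in 14 libraries: ●●●●●●○●●●●●●●●●●●●●●●●●●●●●●
gap at 149, 146 reads in 14 libraries: ●●●●●●●●○●●●●●●●●●●●●●●●●●●●●
gap at 108, 121 reads in 13 libraries: ●●●●●○●●●●●●●●●●●●●●●●●●●●●●●
gap at 246, 89 reads in 13 libraries: ●●●●●●●●●●●●●●●●●●●●●●●●○●●●●
gap at 231, 1005 reads in Gzf1 knockout oocytes 1: ●●●●●●●●●●●●●●●●●●●●●●○●●●●●●
wild-type mESC, 5 reads: ○○○○●●●●●●●●●●●●●●●●●●●●●●●●●
wild-type tail, 5 reads: ●●●●○○○●●●●●●●●●●●●●●●●●●●●●●
Gzf1 knockout mESC, 7 reads: ●●●●●○●●○●●●●●●●●●●●●●●○●●●●●
Gzf1 knockout trunk, 8 reads: ●●●●○○○○○○○●○●●●●●●●●●●●●●●●●
Gzf1 knockout tail, 6 reads: ●●●●●●●●○●●●○●○●●●●●●●●●●●●○●
Gzf1 knockout dead pup, 3 reads: ●●●●●○○○○●●●●●●●●●●●●●●●●●●●●
Gzf1 knockout oocytes 2, 24 reads: ●●●●●●●●●○●●○●●●●●○●○●●●●●●○●
Among reads called at all 29 CpGs, each of the 29 possible patterns with 1 gap was found in at least 2 libraries. Reads with 2 gaps fell into 311 patterns, of which 171 were in at least 2 libraries. Reads with 3 or more gaps fell into 1466 patterns, and 1354 of these were seen in 1 library each.

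Fully methylated reads, those with no gap, were the most frequent pattern in 14 of the 15 libraries, the first oocyte library being the exception. They made up 39.95% of the mostly methylated reads in wild-type mESC (interval 35.4 to 44.7) and 11.4% in Gzf1 knockout mESC (9.73 to 13.2). In trunk they were 34.6% in wild type (30.8 to 38.6) and 30.8% in the knockout (28.5 to 33.1), which is the pair whose intervals overlapped. In tail they were 43.6% in wild type (40.2 to 47.1) and 29.2% in the knockout (26.7 to 31.8). The dead pup had 26.9% (23.9 to 30.1), below each of the 5 heterozygous tails, at 43.1% ± 2.23 (SD, n = 5). Tet triple knockout mESC had 44.1% (36.4 to 52.0), with an interval that took in the wild-type value. The oocyte knockout libraries had 3.74% (2.88 to 4.83) and 32.4% (28.6 to 36.4).

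All 6 Gzf1 knockout libraries therefore had fewer fully methylated reads (3.74% to 32.4%) than all 9 others (34.6% to 46.8%). This is a description, because the same calls chose the reads. In the oocyte libraries it rested on CpG 231. With that CpG not counted, an alternative chosen after its values were seen, 4 of the 6 were below every other library and the oocyte libraries stood at 92.5% and 49.1%. Mostly methylated reads were also a larger share of reads in the Gzf1 knockout libraries, 66.3% to 100% against 34.5% to 47.7%. Which parental copy a read came from was not tested. The reads compared here and below may thus stem from different parental copies in the knockout and the other libraries.

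The mean number of gaps per read was 1.39 in wild-type and 3.11 in Gzf1 knockout mESC. It was 1.48 and 1.87 in trunk, and 1.26 and 2.05 in tail. The dead pup had 2.85 gaps per read, the heterozygous tails 1.29 ± 0.0957 (SD, n = 5) and the Tet triple knockout 1.125. The oocyte knockout libraries had 1.04 and 1.79. In the pairs from mESC, trunk and tail the knockout reads held more gaps in each, most of all in mESC. The share of reads with 3 or more gaps did not overlap between them. It was 13.2% to 20.8% in the 9 libraries with no Gzf1 knockout and 28.7% to 55.0% in the 4 knockout libraries other than oocytes.

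Some reads lay close to the threshold. Between 0 and 69 reads per library had 70% to under 75% of calls methylated, and 0 to 94 had 65% to under 70%, just outside. The second oocyte library had the most just outside, 94 against 24 just inside. The dead pup followed, with 92 against 69 of its 778 reads. With the threshold at 60% or at 80%, the share of unmethylated calls left its interval in 14 of the 15 libraries each time, so that share depends on the threshold.

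**Figure D1:**
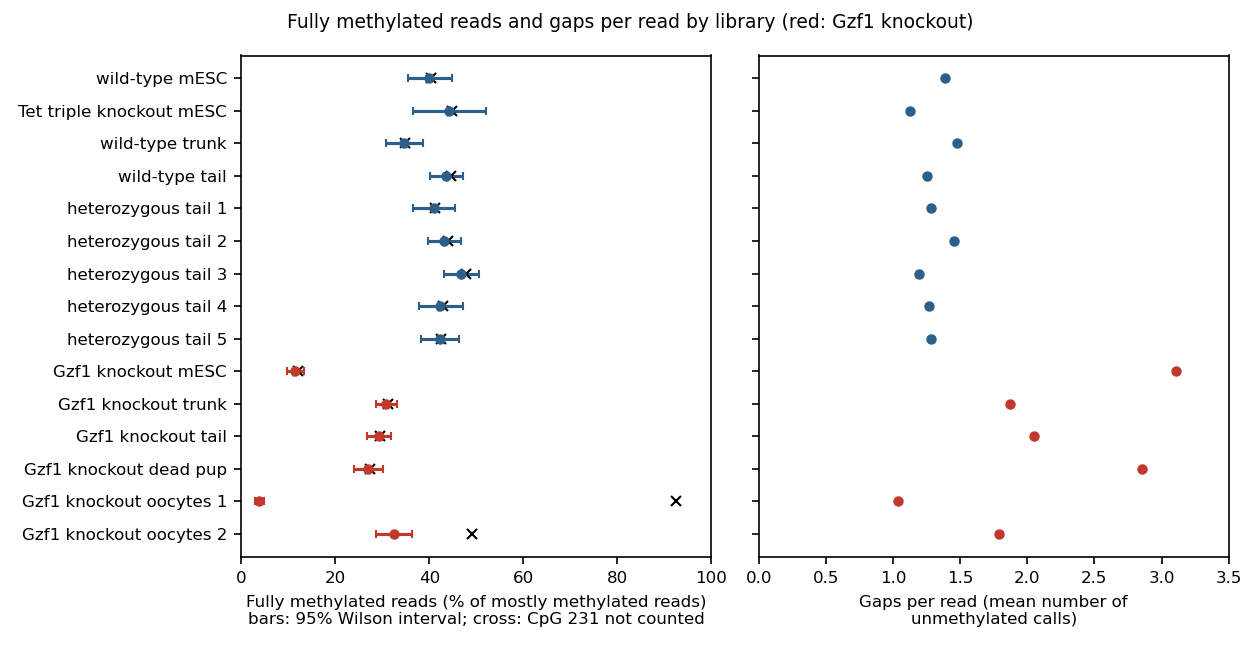
Left, fully methylated reads as a percentage of mostly methylated reads in each of 15 libraries, with 95% Wilson intervals; crosses give the value with CpG 231 not counted. Right, mean gaps per read. The 6 Gzf1 knockout libraries (red) lie between 3.74% and 32.4% and the 9 others (blue) between 34.6% and 46.8%, and the cross of the first oocyte library lies at 92.5%.

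Gaps were not spread evenly over the amplicon. CpG 131 had the highest gap share averaged over the 15 libraries, 15.1% ± 6.89 (SD, n = 15 libraries), and was the highest CpG in 10 of them. Its share was 10.6% in wild-type mESC, 29.3% in knockout mESC and 16.4% in the Tet triple knockout. It was 19.3% and 20.7% in wild-type and knockout trunk, and 11.8% and 17.9% in tail. The dead pup had 24.2% and the heterozygous tails 11.1% to 16.1%. The oocyte knockout libraries were low at this CpG, with 0.214% and 9.92%.

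CpG 231 came next in the mean, at 10.6%, and that mean rests on oocytes. The first oocyte knockout library was unmethylated there in 99.9% of calls and the second in 24.1%, against 0.911% to 6.75% in the other 13 libraries. Without the first oocyte library the mean at CpG 231 was 4.27%. CpG 108 followed at 10.4% ± 6.64 (SD, n = 15). Its share ran from 7.27% to 11.7% in the libraries with no Gzf1 knockout. In the 4 knockout libraries other than oocytes it ran from 12.6% to 27.7%, with no overlap. CpG 108 was not alone in this. The ranges were also apart, with the knockouts higher, at CpGs 149, 180, 223, 228, 244, 246 and 264. At CpG 55 the knockouts were the lower, with 3.15% to 6.05% against 7.08% to 11.7%. At the remaining CpGs the ranges overlapped. The CpGs with the fewest gaps were 214 (mean 1.33%), 193 (2.56%) and 198 (2.83%). CpG 214 stayed at or below 3.04% in all 15 libraries. Besides 131, the highest CpG of a library was 55 in heterozygous tails 3 and 4 (11.7% in each), 231 in both oocyte libraries, and 149 in the knockout tail (19.6%).

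In the first oocyte library the other 28 CpGs had gap shares of 0% to 0.859%. True gaps and calls misread as unmethylated are counted together there, so misread calls were at most that frequent at those CpGs in that library. The library also held few kinds of read. Of 1068 fully called reads with a gap, 1005 had CpG 231 as their only gap, and there were 26 distinct patterns. The second oocyte library had 79 patterns among 263 such reads, and 32 of its reads had gaps at 246 and 254 alone. The sources used here do not say how many oocytes or template molecules stood behind either library.

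**Figure D2:**
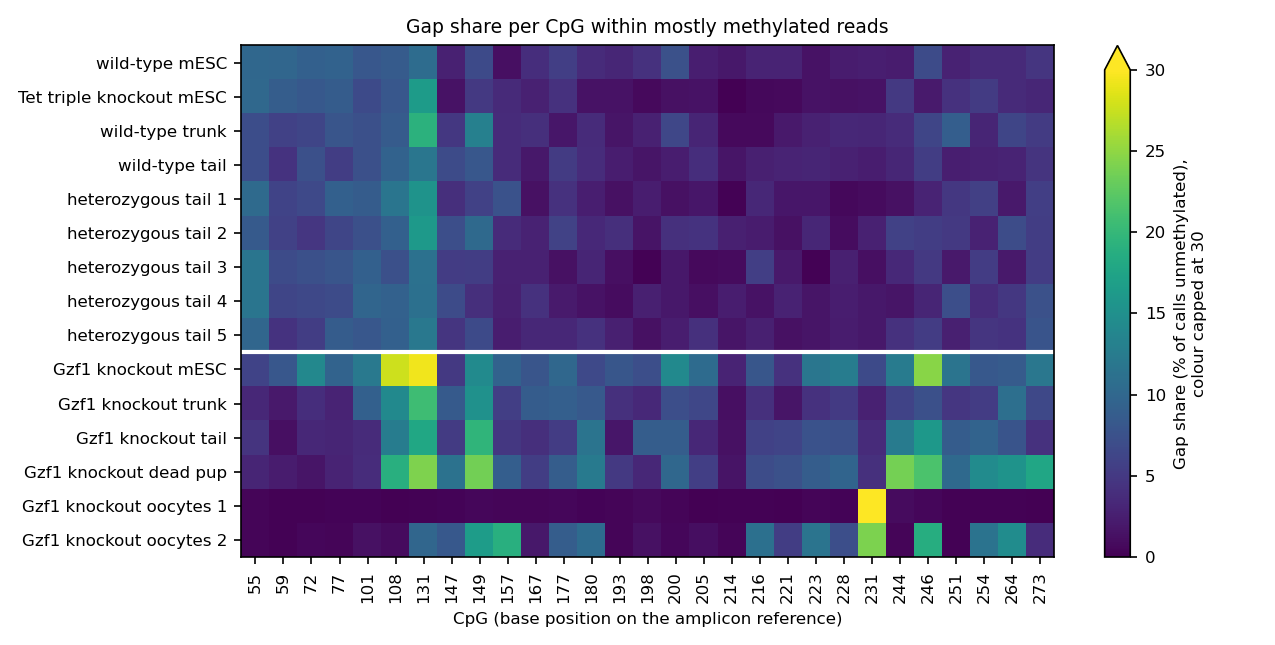
Gap share (percentage of calls unmethylated, colour, capped at 30%) at each of the 29 CpGs, ordered along the amplicon reference, in 15 libraries. The column at CpG 131 is bright in most rows, the left 5 columns are brighter above the white line (no Gzf1 knockout) than in most knockout rows below it, and CpG 231 is bright in oocyte rows only, with 99.9% and 24.1%.

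Libraries resembled each other in where their gaps lay. Over the 29 gap shares, Pearson's r was 0.64 to 0.89 (median 0.79) among the 36 pairs of libraries with no Gzf1 knockout, and 0.65 to 0.86 among the 6 pairs of knockout libraries other than oocytes. Between these sets it was 0.05 to 0.78 (median 0.42, 36 pairs). The oocyte libraries had r of -0.29 to 0.36 with all others. These correlations are across CpGs of 1 amplicon, which share reads and are no replicates, and they carry no p.

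The amplicon was then read in 3 stretches, chosen after the gap map had been seen: the first 5 CpGs (55 to 101), the next 4 (108 to 149) and the last 20 (157 to 273). At the first 5 CpGs the knockout reads did not have more gaps in every source. The gap share there was 9.33% in wild-type and 9.96% in knockout mESC, a difference of 0.625 points with intervals that overlapped. It was 6.90% in wild-type and 4.28% in knockout trunk, and 6.31% in wild-type and 3.16% in knockout tail. The dead pup had 2.78%, below all 5 heterozygous tails (6.54% to 8.63%). So in trunk, tail and pup the reads with more gaps overall had fewer of them at this end. With reads of identical pattern counted once, the mESC difference was -1.38 points, and the differences in trunk and tail were -5.47 and -7.18 points. Merging takes out repeated patterns, of which reads with no gap were the most frequent, and so raised the shares themselves. In mESC they became 13.7% in wild type and 12.3% in the knockout, so the change of sign there says little.

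At CpGs 108 to 149 the knockout share was the higher in each pair. It was 7.17% and 19.1% in wild-type and knockout mESC, 11.4% and 14.6% in trunk, and 9.08% and 13.8% in tail. The dead pup had 19.5%, against 8.60% ± 1.35 (SD, n = 5) in the heterozygous tails. The last 20 CpGs went the same way at lower levels. Shares there were 3.49% and 9.88% in mESC, 3.64% and 5.65% in trunk, and 3.10% and 6.97% in tail, with 10.04% in the dead pup and 2.99% ± 0.485 (SD, n = 5) in the heterozygous tails. All 4 knockout libraries other than oocytes were above all 9 others at both of these stretches. The reads were chosen on these same calls, so none of these differences carries a test. In reads with exactly 1 gap, wild type and knockout had 21.6% and 28.8% of these gaps at CpGs 108 to 149 in mESC. Trunk had 32.2% and 31.6% there, and tail 22.7% and 31.4%. At the last 20 CpGs the knockout had the lower part of such gaps in each pair. The values were 65.5% and 58.0% in mESC, 57.9% and 56.4% in trunk, and 61.6% and 53.9% in tail.

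**Figure D3:**
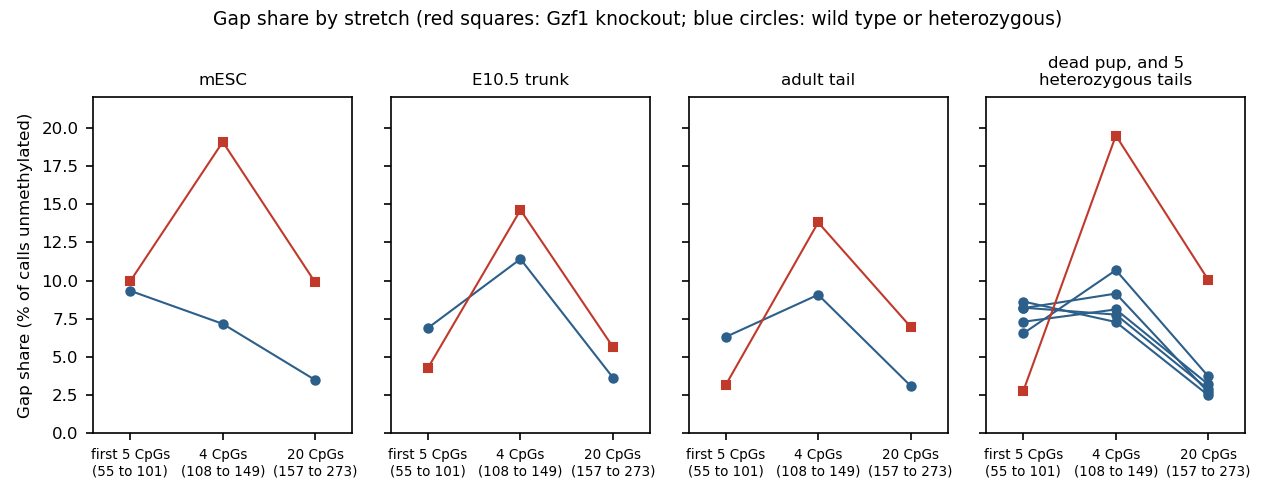
Gap share (percentage of calls unmethylated) in 3 stretches of the amplicon, for Gzf1 knockout (red squares) and wild-type or heterozygous libraries (blue circles) of each source; lines join the values of 1 library. The lines cross between the first and second stretch in trunk, tail and dead pup, where the first 5 CpGs stand at 4.28%, 3.16% and 2.78% in the knockouts, and do not cross in mESC (9.96% and 9.33%).

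Among the 29 CpGs are 5 pairs that lie 2 bases apart and so form CGCG: 147 and 149, 198 and 200, 214 and 216, 221 and 223, and 244 and 246. The second CpG of a pair had the higher gap share in 57 of 75 comparisons (5 pairs in 15 libraries). This was so in 18 of 20 comparisons in the knockout libraries other than oocytes, in 33 of 45 with no Gzf1 knockout and in 6 of 10 in oocytes. For neighbours further apart, the second CpG was higher in 43 of 92 comparisons in the knockout libraries other than oocytes and in 101 of 207 with no Gzf1 knockout. These pooled counts hide single pairs with a steady order. At 23 bases (1 pair) the second was higher in 4 of 4 and 9 of 9 comparisons, and at 16 bases (1 pair) in 0 of 4 and 0 of 9. Among the pairs 2 bases apart, 221 and 223 had the second higher in 5 of 9 libraries with no Gzf1 knockout. At 147 and 149 the second was higher in 14 of 15 libraries, wild-type mESC having 2.74% and 6.72% and knockout mESC 4.96% and 14.4%. The same reads give both values of a pair, and all libraries share 1 amplicon and 1 pair of ends, so the counts are a description.

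**Figure D4:**
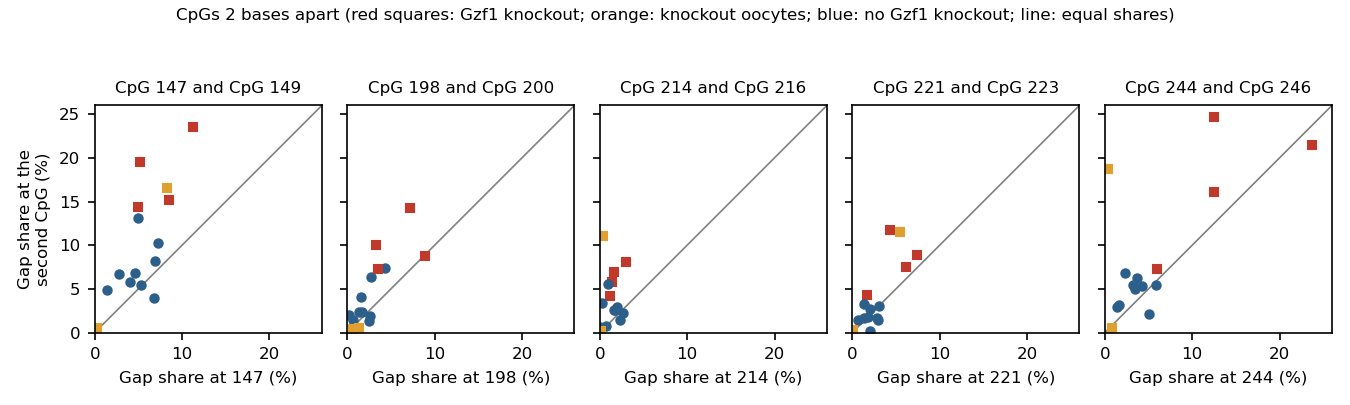
Gap share at the second CpG (vertical axis, percentage of calls) against the first (horizontal axis, percentage of calls) for the 5 pairs of CpGs 2 bases apart, 1 point per library. Points above the line have more gaps at the second CpG, as do 57 of the 75 points and 18 of the 20 red squares (Gzf1 knockout libraries other than oocytes).

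At some pairs of neighbouring CpGs, gaps came together in 1 read. Of wild-type mESC reads with a gap at CpG 55, 31 of 40 also had a gap at CpG 59, where the product of the 2 gap shares gives 4.01 reads. In knockout mESC this was 33 of 75 reads, and the product gives 6.16. In wild-type tail 35 of 52 reads with a gap at 147 had a gap at 149, where the product gives 4.21, and in knockout tail 35 of 61, where it gives 11.96. These pairs are examples, and other pairs or libraries lay near or below the product. In knockout mESC 2 of 81 reads with a gap at 180 had a gap at 193, where the product gives 6.53. In the dead pup 0 of 24 reads with a gap at 55 had a gap at 59, where it gives 0.537. Reads rich in gaps raise such counts by themselves.

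Runs of adjacent gaps were therefore counted in reads with 3 or more gaps. The longest run reached 3 or more CpGs in 50% of these reads in wild-type mESC (interval 39.4 to 60.6, 82 reads) and in 25.4% in knockout mESC (22.3 to 28.7, 698 reads). In tail it did so in 53.0% in wild type (44.0 to 61.9, 115 reads) and in 22.5% in the knockout (18.7 to 26.9, 395 reads). The heterozygous tails had 57.3% ± 1.07 (SD, n = 5) and the dead pup 30% (25.4 to 35.1, 340 reads). Trunk went the other way, with 33.1% in wild type (25.2 to 42.0, 118 reads) and 43.3% in the knockout (38.8 to 47.9, 455 reads). The longest runs spanned 7 or 8 CpGs in 12 of the 15 libraries, and the 70% threshold caps a fully called read at 8 gaps.

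Runs of at least 3 gaps that began at the first called CpG of a read were found in 5.74% of mostly methylated reads of wild-type mESC and in 3.95% of the Tet triple knockout. They were found in 2.47% of wild-type trunk reads, in 0.767% of wild-type tail reads and in 1.30% to 3.08% of heterozygous tail reads. In the 6 Gzf1 knockout libraries they made up 0% to 1.66%, and the dead pup had 0 among 778. Runs inside the read, touching neither end, were found in 3.11% and 11.7% of wild-type and knockout mESC reads, 3.35% and 11.7% in trunk, and 7.03% and 6.31% in tail. The dead pup had 11.8% and the heterozygous tails 5.98% ± 1.68 (SD, n = 5).

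Where the only gap lay was tested in reads with exactly 1 gap, 44 to 1312 per library, with Fisher's exact test at each of the 29 CpGs and Benjamini-Hochberg adjustment within a pair of libraries. A CpG was called at an adjusted p under 0.05 and a difference of at least 5 points. The tests compare libraries and not conditions, since most groups have 1 library, and they treat reads as independent. Libraries of 1 group differed as well: by a chi-square test on the place of the only gap, so did 9 of 10 pairs of heterozygous tails. In mESC 0 of 29 CpGs were called between knockout and wild type (0%), although 4 had an unadjusted p under 0.05. CpG 200 differed most, as the site of the only gap in 9.73% of wild-type and 2.08% of knockout reads (adjusted p = 0.135, Fisher's exact test). In trunk 1 of 29 was called (3.45%). CpG 251 was the only gap in 12 of 165 wild-type reads called there and in 0 of 421 knockout reads, which allows up to 0.713% (adjusted p = 5.4e-06, Fisher's exact test). At CpG 131 the trunk shares were close, 16.4% and 15.2%.

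In tail 1 of 29 was called (3.45%). CpG 180 was the only gap in 3 of 212 wild-type and 20 of 262 knockout reads, or 1.42% and 7.63% (adjusted p = 0.048, Fisher's exact test). The dead pup against the wild-type tail gave 3 of 29 (10.3%), each higher in the pup. The largest was CpG 131, the only gap in 20% of the pup's reads and 8.17% of the wild-type tail's (adjusted p = 0.033, Fisher's exact test), and the others were 108 and 180, named here after their values were seen. The 3 calls rest on the same wild-type tail library as the call in the knockout tail. Each was lost at a minimum of 20 calls per read. The trunk, tail and pup calls were all lost with reads of identical pattern counted once, which leaves few reads per CpG. Fully called reads with the same only gap are then merged into 1, so that loss says little about the calls.

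Against the heterozygous tails, whose read code the pup shared, 0 of 29 CpGs were called in all 5 pairings (0%), and 0 to 5 in a single pairing. CpG 180 had the largest mean difference, 7.73 points, with 9.45% of pup reads against 0.725% to 2.82% in the 5 heterozygous tails, and was the 1 CpG with an unadjusted p under 0.05 in each pairing. The 5 heterozygous tails against the wild-type tail gave 0 of 29 (0%), with 0 to 2 calls in a single pairing and 0 CpGs at an unadjusted p under 0.05 in each. The largest mean difference was 4.78 points, at CpG 101. Tet triple knockout against wild-type mESC also gave 0 of 29 (0%), with 3 at an unadjusted p under 0.05 and 44 reads with 1 gap in the knockout. Its largest difference was at CpG 131, 23.1% against 7.96%.

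The 2 oocyte knockout libraries differed from each other at 4 of 29 CpGs (13.8%), though both are labelled as replicates of 1 group. CpG 231 was the only gap in all 1307 reads called there in the first library and in 92 of 161 in the second (57.1%, adjusted p = 2.8e-72, Fisher's exact test). CpG 149 was the only gap in 0 of 1300 reads in the first, which allows up to 0.231%, and in 31 of 163 in the second (19.0%, adjusted p = 2.7e-30, Fisher's exact test). CpGs 131 and 264 were the other calls, at 5.0% and 7.45% in the second library. These tests counted reads as independent, although the 1068 fully called reads with a gap in the first library fell into 26 patterns. Their p-values thus do not measure the spread between replicates. No wild-type oocyte reads were mostly methylated, so neither library has a wild-type counterpart.

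**Figure D5:**
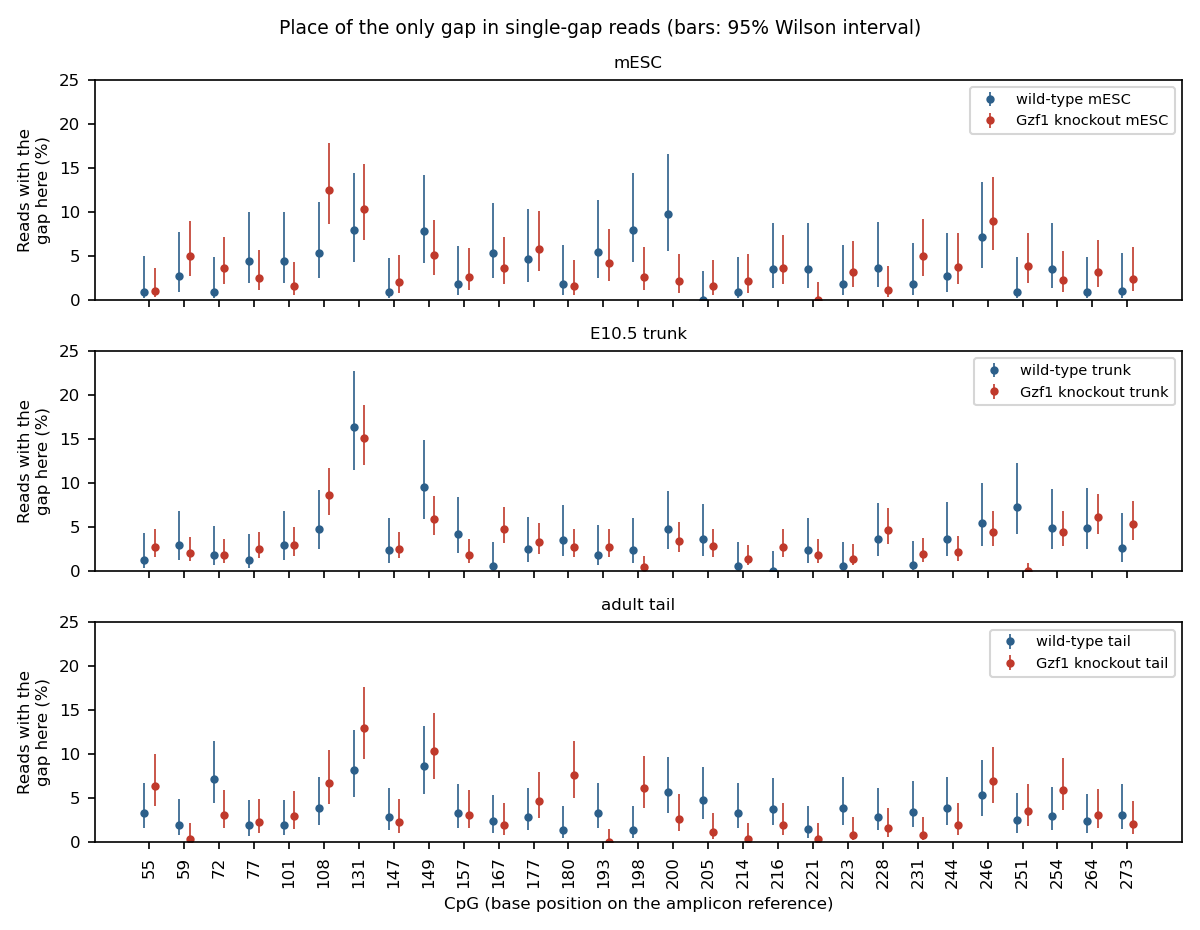
Percentage of reads with exactly 1 gap whose gap lay at each CpG (horizontal axis, base on the amplicon reference), in wild-type (blue) and Gzf1 knockout (red) libraries of 3 sources, with 95% Wilson intervals. The intervals overlap at most CpGs. The called CpGs were 251 in trunk (7.27% and 0%) and 180 in tail (1.42% and 7.63%). In mESC CpG 200 differed most, by -7.65 points (knockout minus wild type), and was not called.

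In reads with exactly 2 gaps, the gaps lay at neighbouring CpGs more often than the 7.02% to 8.07% that even placement over the called CpGs gives, in 14 of 15 libraries. Even placement takes every CpG as equally likely to hold a gap, which the gap shares above contradict, so this count is a description. In heterozygous tail 1 the interval (5.67 to 21.8) took in its value for even placement, 7.02%. Neighbouring gaps were found in 18.9% of such reads in wild-type mESC (53 reads) and 11.8% in knockout mESC (221 reads). The shares were 14.6% and 17.5% in trunk, and 23.6% and 24.6% in tail. The heterozygous tails ranged from 11.5% to 45.5%, 28.9% ± 13.2 (SD, n = 5), and the dead pup had 23.7%. The second oocyte library, with 3.57%, was the one below even placement, and its interval (1.22 to 9.98) took in its value for even placement, 7.15%.

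None of 16 library pairs passed Fisher's exact test after adjustment over the 16 (smallest adjusted p = 0.10), and 3 had an unadjusted p under 0.05. Over mESC, trunk and tail the knockout differed from wild type by -1.09 ± 5.29 points (SD, n = 3; exact sign-flip permutation test, two-sided p = 1.0, where 3 sources cannot go below 0.25). The heterozygous tails differed from the wild-type tail by 5.27 points, and the dead pup from the heterozygous tails by -5.25 points. Exact two-sided permutation tests gave p = 0.83 for each, where 5 libraries against 1 cannot go below 0.17. A difference between genotypes in how 2 gaps lie to each other was thus not detectable with these libraries.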

How the data were processed

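Each of the 17 libraries on the IG-CGI reference was 1 deposited file of calls, 1 line per read and CpG, with a methylated or unmethylated letter. Per the file headers, the authors made them with version 0.22.3 of Bismark's extractor. The submitters' processing notes list Bismark 0.24.2 and mm10. Settings of the aligner, and filters on reads, were not given in the sources used here. A position was kept if 10% or more of a library's reads were called at it, in 1 library or more, which left 29 CpGs. Bisulfite does not separate 5-methylcytosine from 5-hydroxymethylcytosine.

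Reads with at least 5 calls and at least 70% methylated were kept, in libraries with at least 50 of them (Python 3.11.15, numpy 2.4.6, scipy 1.17.1). These reads, the lists and the tests were chosen with earlier results of these data known. Fisher's exact test per CpG used reads with 1 gap and CpGs with at least 10 such reads in each library. It recovered a strongly raised CpG in simulated independent reads. That simulation held no PCR copies and did not try differences as small as those called in trunk, tail and the dead pup. With several libraries in a group, a CpG counted if every pairing called it in 1 direction. The text names the 3 CpGs with the highest and the 3 with the lowest mean gap share, the highest CpG of each library, and the called CpGs with the largest rise and fall of a comparison or, without calls, the largest difference. In the place of the only gap, 9 of 10 pairs of heterozygous tails and the oocyte pair differed by a chi-square test. Heterozygous tails 2 and 5 did not differ by it, but 47.7% and 40.2% of their reads were mostly methylated, with Wilson intervals apart (45.3 to 50.2 and 37.6 to 42.8), so they were kept as separate samples. Alternatives changed the minimum of calls, the methylated share, the positions, the counting of identical patterns, the minimum difference and the libraries used. No amplicon sequence was used here.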

Additional observations from a re-analysis of the deposited data

Results flagged for a closer look

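Among 23 measures looked at in the 5 heterozygous tails, 2 had a library far from the others, where chance gives about 1 in 20. Both were heterozygous tail 2, with 47.7% of its reads mostly methylated and 10.4% of those reads holding a run of at least 3 gaps. The gap to the nearest of the other 4 tails was 0.835 and 0.844 of the whole range, above the limit of 0.71 for 5 samples.

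At the first 5 CpGs the gap share differed between knockout and wild type by 0.625 points in mESC and by -2.62 points in trunk and -3.15 points in tail. The sign was opposite in mESC, but there the intervals of the 2 libraries overlapped, and the difference became -0.65 points at 60% methylated. With identical patterns counted once it became -1.38 points, but merging raised the gap share in both mESC libraries, so that change says little. Each genotype had 1 library per source, and the difference between sources was not tested.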

How the results depend on the processing

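The calls of the place of the only gap depended on the settings. Counts of called CpGs went to 0 for the dead pup against the wild-type tail at a minimum of 20 calls per read, and to 0 for trunk, tail and pup with identical patterns counted once. Merging leaves 1 of the fully called reads with the same only gap, so the latter says little about the calls. With a minimum difference of 10 points the counts were 0 in trunk, 0 in tail, 1 for the pup and 2 for the oocytes, and with no minimum 2 in tail and 8 for the oocytes. The differences in neighbouring gaps were small against their error and changed sign with the setting. For the pup against the wild-type tail they were -1.85 points (20 calls), -1.12 (60% methylated), -1.66 (80%), -7.50 (identical patterns once) and -0.067 (without the first and last CpG). In tail they were -0.18 (60%) and -2.19 (identical patterns once). For Tet triple knockout mESC they were -0.72 (identical patterns once), -0.18 (every position) and -7.75 (without the first and last CpG). Without the first and last CpG they were also 0.59 in Gzf1 knockout mESC, -1.002 in trunk, 0.89 over the 3 sources and -11.6 for the oocytes, which then passed (adjusted p = 0.043, Fisher's exact test). Without mESC the mean over sources was 1.91. For these changes the cause was not tested. Leaving out each heterozygous tail gave 0 called CpGs throughout and differences in neighbouring gaps of 1.13 to 9.63 points against the wild-type tail and -9.61 to -1.12 for the pup. Leaving out an oocyte library leaves no pair to compare.

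The stretch differences, an alternative added after seeing the data, kept their sign except in mESC at the first 5 CpGs, which went to -0.65 points at 60% methylated and -1.38 with identical patterns once. At 60% the first 5 CpGs gave -5.85 in trunk, -4.86 in tail and -5.49 for the pup, and the last 20 gave 7.56 in mESC and 9.58 for the pup. At 80% the first 5 gave -0.98 in trunk, CpGs 108 to 149 gave 8.89 in mESC and 7.23 for the pup, and the last 20 gave 4.67, 1.23, 2.60 and 2.68 in mESC, trunk, tail and pup. With identical patterns once, the first 5 gave -5.47, -7.18 and -8.58 in trunk, tail and pup, CpGs 108 to 149 gave 5.67 in trunk, and the last 20 gave 3.41, 4.79 and 8.71 in trunk, tail and pup. The share of fully methylated reads left its interval in 4 of 15 libraries at 80%, in 2 at 60%, in 2 without CpG 231, in 1 at 20 calls (where the lowest share fell to 0.565%) and in 1 without the first and last CpG. Identical patterns counted once moved it in all 15, which follows from merging the reads without a gap, so the order there (3.42% to 19.9% in the knockouts, 10.8% to 21.1% in the others) bears on nothing. The share of unmethylated calls left its interval in 14 libraries at 60%, in 14 at 80%, in 15 with identical patterns once and in 3 without the first and last CpG. No paired analysis was possible because the labels number the libraries of no 2 groups that were compared, and the numbers elsewhere only name a library. The test over 3 sources already sets knockout against wild type within a source. Depth limits the reads with 1 or 2 gaps most, with 44 and 21 in the Tet triple knockout.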

Other observations

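Reads that were mostly unmethylated made up 42.2% to 60.2% of reads in the 9 libraries with no Gzf1 knockout and 0% to 15.2% in the 6 Gzf1 knockout libraries. Among fully called reads with at least 1 gap, patterns seen a single time in their library were 30.3% to 49.1% in the 9 libraries with no Gzf1 knockout. The Gzf1 knockout libraries lay on both sides of this range or within it, with 58.4% in the dead pup, 46.9% in mESC, 32.2% in tail, 27.3% in trunk, and 0.655% and 22.4% in the oocyte libraries. Of the gaps of the first and second oocyte libraries, 3.14% and 21.4% lay in runs of at least 2, against 32.0% to 46.0% in the 4 other knockout sources.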
